A study of Mus musculus with 2 samples.

Results

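The 9 genes described here encode the enzymes and transporters with which cells make, store, take back and break down catecholamines: Th, Ddc, Dbh, Pnmt, Gch1, Slc18a1, Slc18a2, Slc6a2 and Maoa. They were chosen by name for their known roles, and each symbol matched 1 of the 55536 annotated gene IDs of GENCODE M21. Their RNA was measured in whole adrenal glands of 2 adult male B6CASTF1/J mice, a cross of C57BL/6J with CAST/EiJ, aged 8 to 10 months and untreated as far as the labels say. Replicate 1 is animal 2 and replicate 2 is animal 4 of the submitters' numbering, and the labels give both the same donor record. The labels name 1 group, so the results are levels, ratios between genes within a gland, and the difference between the 2 glands. No p-value is given, since each side of that difference is 1 animal, which leaves no measure of the spread between animals.

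Catecholamines are made from tyrosine in a fixed order. Tyrosine hydroxylase (Th) makes L-DOPA with the cofactor tetrahydrobiopterin, whose synthesis starts with GTP cyclohydrolase (Gch1). Aromatic amino acid decarboxylase (Ddc) makes dopamine, dopamine beta-hydroxylase (Dbh) makes noradrenaline inside the secretory granule, and phenylethanolamine N-methyltransferase (Pnmt) makes adrenaline in the cytosol. The vesicular monoamine transporters VMAT1 (Slc18a1) and VMAT2 (Slc18a2) load the granules. The noradrenaline transporter (Slc6a2) takes the amine back up, and monoamine oxidase A (Maoa) breaks it down. In the adrenal gland this pathway belongs to the chromaffin cells of the medulla, of which those that make adrenaline express Pnmt, and glucocorticoids from the cortex are known to sustain Pnmt expression.

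The library of replicate 1 had a total of 29994901 expected counts and that of replicate 2 a total of 33987434. All 9 genes were detected at 1 TPM (a transcript's level per length, scaled to the same total in every library) or more in both glands, with 1211 counts or more each, and the deposited posterior standard deviation of the count was 0 for every one of them in both libraries. Together they took 0.350% of the TPM of nuclear protein-coding genes in replicate 1 and 0.179% in replicate 2, a difference carried by Th and Pnmt. The labelled tissue was matched by its markers: 13 of 13 chromaffin markers outside the 9 genes and 9 of 9 cortical markers were detected in both glands. Fat markers stood apart between the glands. The 9 white adipocyte markers summed to 252 TPM in replicate 1 and 1972 TPM in replicate 2, and the 6 brown adipocyte markers to 27.0 and 282 TPM in replicates 1 and 2. What part fat tissue had in the differences below was not tested.

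Th was the most abundant of the 9 by mean level and differed between the glands. It stood at 514 TPM in replicate 1 (24904 counts) and at 256 TPM in replicate 2 (13306 counts), a mean of 385 ± 183 TPM (SD, n = 2). Among the 22015 nuclear protein-coding genes it ranked 51 in replicate 1 and 162 in replicate 2. After scaling the counts between libraries, Th was 2.18-fold higher in replicate 1, with a 95% interval for counting error of 2.13 to 2.22. Fewer chromaffin cells and less RNA per cell cannot be told apart in RNA of a whole gland. The gene lies on chromosome 7, 142892752 to 142931128, minus strand (ENSMUSG00000000214.11, mm10), and no annotated gene overlaps it. Its main transcript, Th-201, starts at 142900014 and took 100% of the gene's TPM in both glands in the tables of RSEM format. The tables of kallisto format gave it 88.6% and 82.5% in replicates 1 and 2, and placed 11.1% and 17.1% on transcripts annotated as targets of nonsense-mediated decay.

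Gch1, the entry enzyme of cofactor synthesis, differed in the same direction as Th. It had 36.85 TPM in replicate 1 and 20.84 TPM in replicate 2 (mean 28.8 ± 11.3, SD, n = 2), and was 1.92-fold higher in replicate 1 (1.80 to 2.04). The ratio of Gch1 to Th was therefore close in both glands, at 0.0717 (0.0689 to 0.0745) in replicate 1 and 0.0815 (0.0774 to 0.0857) in replicate 2, although these counting intervals do not overlap. Gch1 lies on chromosome 14, 47153895 to 47189413, minus strand (ENSMUSG00000037580.10). Its coding transcript Gch1-201 took 95.6% of the gene's TPM in replicate 1 and 95.8% in replicate 2, and the rest came from Gch1-202, annotated as a retained intron. The pseudogene Gm18811 lies inside the gene on the same strand, with 21 counts in replicate 1 and 16 in replicate 2.

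The other abundant genes of tetrahydrobiopterin supply had folds near 1. Of the 8 genes listed, Gch1 included, all were detected in both glands. None of the 7 averaging 100 counts or more was at least 2-fold apart, beside 3.51% of 12853 nuclear genes averaging that many. Qdpr, the reductase that recycles the cofactor, stood at 42.1 TPM in replicate 1 and 41.7 TPM in replicate 2, a fold of 1.01 (0.937 to 1.09). Spr, sepiapterin reductase, stood at 26.5 and 29.1 TPM in replicates 1 and 2, a fold of 0.993 (0.905 to 1.09). The recycling enzyme exceeded Gch1 by 1.14 times in replicate 1 (1.07 to 1.22) and by 2.00 times in replicate 2 (1.86 to 2.15). The list's median log2 ratio, replicate 1 over replicate 2 of CPM (counts scaled to the library's size) plus 1, was -0.05, beside -0.01 over 18181 nuclear genes.

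The promoter sequences of Th, Gch1 and Slc18a2 are shown because Th and Gch1 were both higher in replicate 1 and because Th and Slc18a2 share a motif. RefSeq windows of 300 bases (GRCm38.p6), from 250 before to 50 after a gene's start, were found for 6 of the 9 genes: Th, Ddc, Dbh, Gch1, Slc18a2 and Maoa. Only bases before the first GENCODE start nearby are printed, 5′ to 3′ on the gene's strand. Capitals mark the cAMP response element TGACGTCA or its core TGACG, the AP-1 motif TGANTCA and the TATA box TATAAA, searched on both strands, and the core lies inside the full element where both occur. The Th window is chr7:142900015-142900245 (minus), that of Gch1 chr14:47189414-47189663 (minus) and that of Slc18a2 chr19:59260628-59260895 (plus).
Th: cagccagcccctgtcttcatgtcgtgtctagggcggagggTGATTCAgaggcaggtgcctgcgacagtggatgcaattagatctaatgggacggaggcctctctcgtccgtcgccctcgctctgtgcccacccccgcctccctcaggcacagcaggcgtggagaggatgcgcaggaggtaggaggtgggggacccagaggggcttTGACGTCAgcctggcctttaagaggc
Gch1: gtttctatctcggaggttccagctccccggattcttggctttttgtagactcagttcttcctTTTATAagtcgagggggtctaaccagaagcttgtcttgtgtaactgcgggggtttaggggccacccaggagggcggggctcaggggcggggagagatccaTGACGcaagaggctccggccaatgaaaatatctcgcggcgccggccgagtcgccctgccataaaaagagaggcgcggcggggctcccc
Slc18a2: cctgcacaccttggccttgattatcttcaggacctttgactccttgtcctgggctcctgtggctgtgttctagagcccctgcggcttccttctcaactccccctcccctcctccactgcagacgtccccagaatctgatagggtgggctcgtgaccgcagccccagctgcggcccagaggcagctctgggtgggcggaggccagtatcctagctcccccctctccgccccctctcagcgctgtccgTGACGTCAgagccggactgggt

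The full cAMP response element stood 26 to 19 bases before the GENCODE start of Th-201 (45 to 38 bases before its RefSeq start) and 22 to 15 bases before that of Slc18a2-201. The RefSeq start of Slc18a2 falls inside the element. The motif occurs in 1.80% of 32544 promoter windows, and in no window of Ddc, Dbh, Gch1 or Maoa. Gch1 held the core TGACG alone, 88 to 84 bases before its start, a pattern present in 20.9% of windows. The windows of Maoa (209 to 205 bases before the start) and Dbh (222 to 218 bases before the RefSeq start) also held the core without the full element. In Dbh this place lies after the GENCODE start, inside the annotated gene. The AP-1 motif stood 191 to 185 bases before the start in Th (7.79% of windows). In Gch1 the letters of the TATA box (13.6% of windows) lay on the opposite strand, 188 to 183 bases before the start. The palindromic glucocorticoid receptor element occurs in 0.0399% of windows and in none of these 6 genes. It is too rare for that absence to say anything, and Pnmt had no window to search. E-boxes (CANNTG, 72.3% of windows) and GC boxes (GGGCGG, 35.9%) were also searched. What part any of these motifs had in the folds between the glands was not tested.

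Ddc, the enzyme after Th, had the fold nearest to 1 of the 9 between the glands. It had 51.8 TPM in replicate 1 (1893 counts) and 54.5 TPM in replicate 2 (2309 counts), a mean of 53.1 ± 1.89 TPM (SD, n = 2), with a fold of 0.954 whose interval holds equality (0.897 to 1.01). The interval excluded equality when the counts were scaled to all genes (0.874 to 0.988), to protein-coding genes (0.871 to 0.984) or to the spike-ins (0.855 to 0.966). Ddc thus stood at 0.101 of the Th level in replicate 1 and at 0.213 in replicate 2. Ddc is also known from kidney tubules, whose markers were at low levels here: of 7 kidney markers none reached 1 TPM in both glands, and they summed to 0.490 TPM in replicate 1 and 1.97 TPM in replicate 2, with Umod at 0 in both. The Ddc gene lies on chromosome 11, 11814101 to 11898144, minus strand (ENSMUSG00000020182.16). An antisense gene within it, 1700042O10Rik, had 1 count in replicate 1 and 0 in replicate 2.

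The quantifiers placed Ddc transcripts at different starts. Rodent Ddc is known to have separate first exons for neural and for other tissues, and the annotation holds starts at 11898144 (Ddc-210) and at 11890408 (Ddc-202), 7736 bases apart. The tables of RSEM format gave 88.5% and 89.1% of Ddc TPM in replicates 1 and 2 to the 4 transcripts of the downstream start, and 0% and 4.17% to the 2 that start within 100 bases of the upstream start. The tables of kallisto format gave 11.5% and 9.22% to the downstream start and 80.7% and 86.9% to the upstream start. The shares differed far more between the formats than between the glands. Ddc-202 and Ddc-210 share 1853 words of 31 bases, with 71 found in Ddc-202 but not in Ddc-210 and 135 the other way. Why the formats differ was not tested. The 2 formats also differed in the Ddc level, 53.1 ± 1.89 TPM by RSEM and 35.8 ± 2.22 TPM by kallisto (SD, n = 2), and the RSEM-format tables put 34.0% and 27.5% of it on Ddc-209, a short transcript with 0 such words of its own. The bases before both starts are shown because the 2 formats favour different starts. The upstream window is chr11:11898145-11898394 and the downstream one chr11:11890409-11890658, both minus strand.
Ddc upstream start: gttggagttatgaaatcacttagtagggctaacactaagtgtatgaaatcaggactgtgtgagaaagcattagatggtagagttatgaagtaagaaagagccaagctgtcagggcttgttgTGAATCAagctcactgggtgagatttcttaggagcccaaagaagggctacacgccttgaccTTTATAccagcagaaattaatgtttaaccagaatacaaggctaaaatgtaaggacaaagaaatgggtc
Ddc downstream start: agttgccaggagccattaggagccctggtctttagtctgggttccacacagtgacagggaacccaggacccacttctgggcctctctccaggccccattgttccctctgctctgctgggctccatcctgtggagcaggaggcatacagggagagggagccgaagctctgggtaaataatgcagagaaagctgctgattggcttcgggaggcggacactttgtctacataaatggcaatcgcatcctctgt

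The upstream window held an AP-1 motif 129 to 123 bases before its start. It also held the letters of the TATA box, on the opposite strand, 68 to 63 bases before that start. The downstream window held none of the 7 motifs searched, which says only that these letters are not in it.

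**Figure D1:**
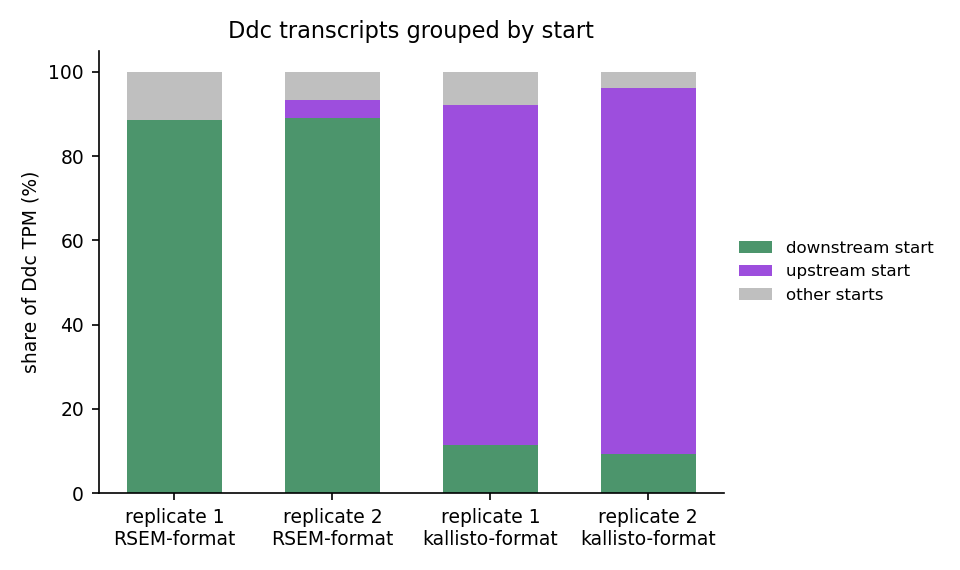
Share of Ddc TPM (percent, y axis) on transcripts of the downstream start, the upstream start and other starts, for each replicate and each table format (x axis). The downstream start takes 88.5% and 89.1% in the RSEM-format tables and 11.5% and 9.22% in the kallisto-format tables.

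Dbh, the granule enzyme that makes noradrenaline, differed by less than Th. It had 244 TPM in replicate 1 (16620 counts) and 195 TPM in replicate 2 (14266 counts), a mean of 219.6 ± 34.2 TPM (SD, n = 2), and was 1.36-fold higher in replicate 1 (1.33 to 1.39). The ratio of Dbh to Th was 0.474 in replicate 1 (0.465 to 0.484) and 0.764 in replicate 2 (0.746 to 0.783). Dbh lies on chromosome 2, 27165233 to 27183200, plus strand (ENSMUSG00000000889.8), and its single coding transcript took 99.2% and 98.9% of its TPM in replicates 1 and 2. Cyb561, the cytochrome that passes ascorbate's electrons into the granule for Dbh, stood at 122 TPM in replicate 1 and 119.8 TPM in replicate 2 (fold 1.10, 1.06 to 1.13).

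Pnmt, the last enzyme, showed the widest difference of the 9. It had 363 TPM in replicate 1 (10725 counts) and 78.0 TPM in replicate 2 (2475 counts), a mean of 221 ± 202 TPM (SD, n = 2). Its rank among nuclear protein-coding genes was 89 in replicate 1 and 813 in replicate 2. Pnmt was 5.04-fold higher in replicate 1 (4.82 to 5.27), and of 12021 protein-coding genes averaging 100 counts or more, 6 including Pnmt had a fold as high. Pnmt lies on chromosome 11, 98386450 to 98388181, plus strand (ENSMUSG00000038216.7), with no overlapping gene, and Pnmt-201 took 100% of its TPM in both glands and in both table formats. The kallisto-format tables gave 342 TPM in replicate 1 and 76.9 TPM in replicate 2, a fold of 4.82.

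The order of the enzymes therefore differed between the glands. In replicate 1 Th came first, then Pnmt, Dbh and Ddc, and Pnmt exceeded Dbh by 1.49 times (1.45 to 1.53). In replicate 2 Th came first, then Dbh, Pnmt and Ddc, and Pnmt reached 0.399 of the Dbh level (0.382 to 0.417). The ratio of Pnmt to Dbh was thus 3.73 times as high in replicate 1 as in replicate 2, and by kallisto 3.62 times. That of Ddc to Th was 0.473 times as high. These ratios are taken within a library and do not depend on the scaling between libraries. They do depend on length: expected counts, not divided by it, gave Pnmt to Dbh ratios of 0.645 in replicate 1 and 0.173 in replicate 2.

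**Figure D2:**
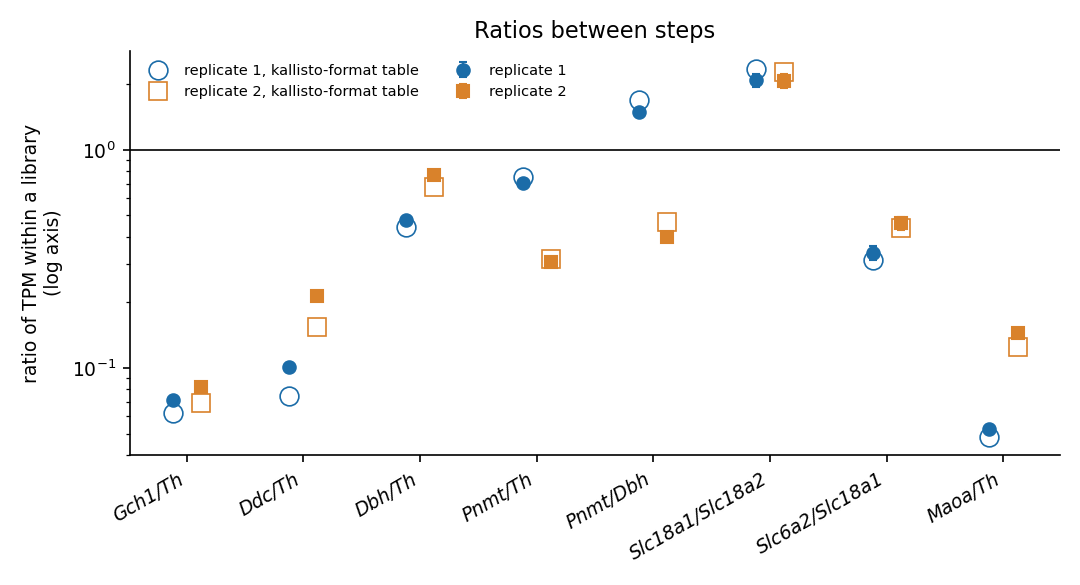
Ratios of TPM between genes within each library (y axis, log scale) for 8 pairs (x axis), replicate 1 left of replicate 2. Filled symbols are RSEM-format values with 95% counting intervals, open symbols kallisto-format values, and Pnmt/Dbh lies above 1 in replicate 1 (1.49) and below 1 in replicate 2 (0.399).

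Of the vesicular transporters, Slc18a1 (VMAT1, typical of endocrine cells) stood above Slc18a2 (VMAT2, typical of neurons) by about the same factor in both glands. Slc18a1 had 23.7 TPM in replicate 1 and 22.2 TPM in replicate 2 (mean 23.0 ± 1.05, SD, n = 2), a fold of 1.18 (1.11 to 1.26). Slc18a2 had 11.4 TPM in replicate 1 and 10.8 TPM in replicate 2 (mean 11.1 ± 0.445, SD, n = 2), with 1211 counts in each library and a fold of 1.16 (1.07 to 1.26). The ratio of Slc18a1 to Slc18a2 was 2.08 in replicate 1 (1.93 to 2.24) and 2.06 in replicate 2 (1.92 to 2.22), and by kallisto 2.34 in replicate 1 and 2.26 in replicate 2. Mast cells, which also use Slc18a2, left little RNA: none of 5 mast cell markers reached 1 TPM in both glands, and they summed to 1.11 TPM in replicate 1 and 3.9 TPM in replicate 2.

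Part of the RNA of both transporters was assigned to transcripts that code for no protein. Slc18a2-202, annotated as a retained intron, took 17.2% of Slc18a2 TPM in replicate 1 and 7.67% in replicate 2, and by kallisto 21.3% in replicate 1 and 11.5% in replicate 2. The retained-intron transcripts Slc18a1-202 and Slc18a1-204 took 12.6% and 5.34% of Slc18a1 TPM in replicate 1 and 15.9% and 4.82% in replicate 2. Slc18a1 lies on chromosome 8, 69037711 to 69089235, minus strand (ENSMUSG00000036330.12), and overlaps the start of Atp6v1b2 on the opposite strand by 590 bases. The kit kept strand, per the labels. Slc18a2 lies on chromosome 19, 59260896 to 59296012, plus strand (ENSMUSG00000025094.8), and the antisense genes over Slc18a2 (Gm29261) and Slc18a1 (Gm15716) had at most 1 count in either library.

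Slc6a2, the plasma membrane transporter for noradrenaline, was the least abundant of the 9 and was higher in replicate 2. It had 8.00 TPM in replicate 1 (1339 counts) and 10.2 TPM in replicate 2 (1845 counts), a mean of 9.11 ± 1.57 TPM (SD, n = 2) and a fold of 0.844 (0.786 to 0.906). It lies on chromosome 8, 92960079 to 93001667, plus strand (ENSMUSG00000055368.14). Its 2 coding transcripts have the same coding length of 1851 bases and differ in their start, with Slc6a2-202 at 63.3% and Slc6a2-201 at 36.7% in replicate 1, against 49.1% and 50.9% in replicate 2. The serotonin transporter Slc6a4, also known to take up monoamines in rodent chromaffin cells, stood above it, at 40.4 TPM in replicate 1 and 27.5 TPM in replicate 2 (fold 1.68, 1.58 to 1.79). The enzyme that starts serotonin synthesis outside the brain, Tph1, had 0 counts in both libraries, which allows up to 3 counts, or 0.10 and 0.0883 CPM in replicates 1 and 2.

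Among the other carriers of monoamine uptake, 2 of 6 were detected in both glands, Slc6a4 and Slc29a4. Slc29a4, the plasma membrane monoamine transporter, stood at 16.1 TPM in replicate 1 and 19.1 TPM in replicate 2 (fold 1.00, 0.921 to 1.09). Slc22a3, the extraneuronal monoamine transporter, had 27 counts (0.280 TPM) in replicate 1 and 457 counts (4.46 TPM) in replicate 2, a fold of 0.0687 (0.0448 to 0.101). It lay with the fat markers in direction. All 9 white adipocyte markers were at least 2-fold lower in replicate 1, at folds of 0.0696 to 0.395, beside 2.40% of all genes compared. The part of fat in the level of Slc22a3 was not tested. The dopamine transporter Slc6a3 had 3 counts in replicate 1 and 2 in replicate 2. The serotonin and histamine list had 1 of 3 genes detected, Hdc, at 2.87 TPM in replicate 1 and 2.39 TPM in replicate 2, and Tph2 stood at 0.200 and 0.620 TPM in replicates 1 and 2.

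Maoa, the breakdown enzyme, was the member furthest on the side of replicate 2. It had 27.0 TPM in replicate 1 (3080 counts) and 37.0 TPM in replicate 2 (4532 counts), a mean of 32.0 ± 7.06 TPM (SD, n = 2) and a fold of 0.790 (0.755 to 0.828). Maoa lies on chromosome X, 16619698 to 16687818, plus strand (ENSMUSG00000025037.6), with a single annotated transcript. Maoa was at 0.0526 of the Th level in replicate 1 and at 0.145 in replicate 2. Its neighbour in function Maob, named here after its values were seen, had 7.0 TPM in replicate 1 and 11.0 TPM in replicate 2 (fold 0.713, 0.633 to 0.803), so the ratio of Maoa to Maob was 3.86 in replicate 1 (3.50 to 4.27) and 3.36 in replicate 2 (3.11 to 3.64). Maoa is not particular to chromaffin cells, and the share of its RNA from cortex, fat or other cells was not tested.

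All 8 genes that act beside or after Maoa were detected. None of the 7 averaging 100 counts or more was at least 2-fold apart, beside 3.51% of 12853 nuclear genes averaging that many. The folds of all 8 ran from 0.713 for Maob to 1.24 for Akr1b3, with a median log2 ratio of -0.04, and the 3 most abundant follow. Akr1a1, an aldehyde reductase, stood at 346 TPM in replicate 1 and 343 TPM in replicate 2 (fold 1.07, 1.04 to 1.09). Aldh2, the mitochondrial aldehyde dehydrogenase, stood at 346 and 341 TPM in replicates 1 and 2 (fold 1.03, 1.00 to 1.05). Akr1b3, an aldose reductase, stood at 136 TPM in replicate 1 and 110.3 TPM in replicate 2 (fold 1.24, 1.18 to 1.29).

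**Figure D3:**
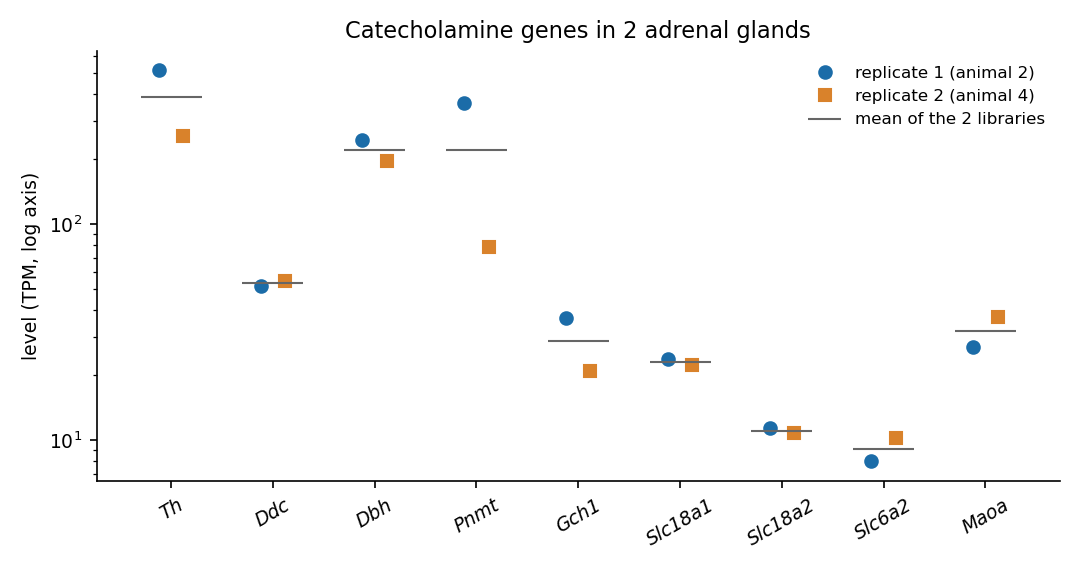
Levels of the 9 genes (y axis, TPM on a log scale) in each library, replicate 1 left of replicate 2, with a line at the mean of the 2 libraries. Pnmt had 363 TPM in replicate 1 and 78.0 TPM in replicate 2, whereas Ddc, Slc18a1 and Slc18a2 lie close to their means.

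By mean TPM the order of the 9 was Th, Pnmt, Dbh, Ddc, Maoa, Gch1, Slc18a1, Slc18a2 and Slc6a2. Th lay above Dbh in both glands without overlap. Pnmt lay below Th within each gland, at 0.706 of its level in replicate 1 and 0.305 in replicate 2, although the ranges over both glands overlapped. The Pnmt values spanned the Dbh range, so the place of Pnmt against Dbh is not settled by these data. Ddc lay below all 3 and above the other 5 in both glands. Maoa and Gch1 overlapped, and the Slc18a1 values (22.2 and 23.7 TPM) lay within the Gch1 range. Slc18a2 (10.8 and 11.4 TPM) and Slc6a2 (8.00 and 10.2 TPM) did not overlap.

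In the comparison of the glands, 2 of the 9 genes, Pnmt and Th, were at least 2-fold higher in replicate 1, where 1.10% of 12853 nuclear genes averaging 100 counts or more were. None of the 9 was at least 2-fold lower in replicate 1, where 2.40% of the genes were, and 3.51% were apart in either direction. The count of 2 of 9 rests on few genes and has no replicate check. In all, 6 of the 9 had a fold above 1 and 3 below it, with a median fold of 1.18, against a median of 0.991 over all genes compared. The 4 enzymes Th, Ddc, Dbh and Pnmt summed to 1173 TPM in replicate 1 and 584 TPM in replicate 2.

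The other chromaffin markers, among them granins and lineage factors, differed less. None of the 13 chromaffin markers was at least 2-fold apart, beside 3.51% of all genes compared, so this count is near that share. Their folds ran from 0.75 for the transcription factor Gata3 to 1.34 for the granin Scg2, with a median of 1.14. Their levels summed to 2883 TPM in replicate 1 and 2445 TPM in replicate 2, and none was at 0. The 10 markers outside the granins summed to 185 TPM in replicate 1 and 193 TPM in replicate 2, with a median fold of 1.08. Pnmt, Th and Gch1 lay above that range. Dbh, at 1.36, and Scg2, at 1.34 (1.32 to 1.36), had overlapping intervals. Slc18a1, Slc18a2, Ddc, Slc6a2 and Maoa lay inside it.

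Set against the geometric mean of the granins Chga, Chgb and Scg2 in the same library, Pnmt was 3.88 times and Th 1.68 times as high in replicate 1 as in replicate 2. On this measure Gch1 was 1.48 times and Dbh 1.04 times as high. Slc18a1 was at 0.910 times, Slc18a2 at 0.896 times, Ddc at 0.735 times, Slc6a2 at 0.650 times and Maoa at 0.609 times its replicate 2 value. With the median chromaffin marker in place of the granins, the Slc18a1 and Slc18a2 values turned to 1.04 and 1.02 times. The granins' own folds were 1.25 to 1.34.

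**Figure D4:**
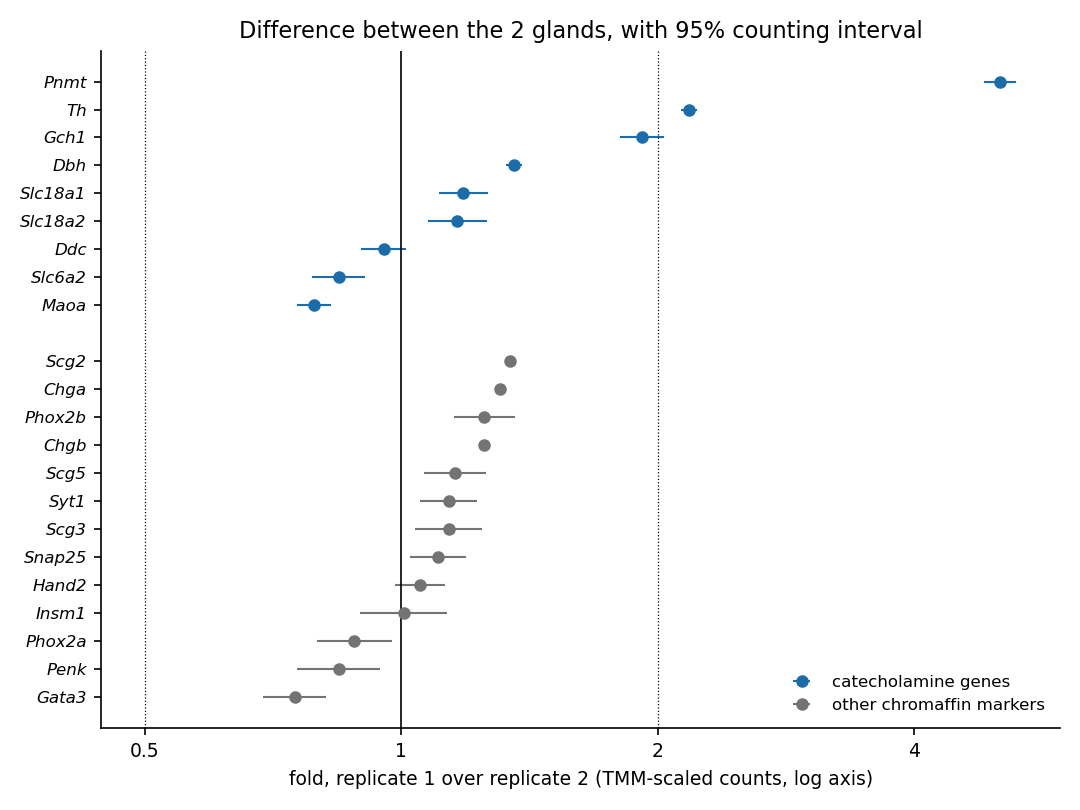
Fold of scaled counts, replicate 1 over replicate 2 (x axis, log scale), for the 9 catecholamine genes above and the 13 other chromaffin markers below. Bars are 95% counting intervals and dotted lines mark 2-fold in either direction; Pnmt (5.04) and Th (2.18) lie past the line, and the markers lie between 0.75 and 1.34.

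In counts scaled between libraries, genes of granule loading lay mostly on the side of replicate 1, by less than 2-fold. The list of granule cofactors and the proton pump that drives vesicular uptake had 9 of 10 genes detected. None of the 9 averaging 100 counts or more was at least 2-fold apart, beside 3.51% of all genes compared. Of the folds, 9 of 10 were above 1, beside 8749 of 18181 nuclear genes, and the median log2 ratio was 0.20 beside -0.01. Among those above 1, Slc17a9 had only 28 counts in replicate 1 and 24 in replicate 2. Atp6ap1, a pump accessory subunit, stood at 104 TPM in replicate 1 and 95.4 TPM in replicate 2 (fold 1.15, 1.11 to 1.19), and Atp6v1b2, a pump subunit, at 75.6 and 70.3 TPM in replicates 1 and 2 (fold 1.17, 1.13 to 1.22). Set against the granins in the same library, Atp6ap1 was at 0.887 times and Atp6v1b2 at 0.904 times its replicate 2 value, so their direction depends on the reference. The pump is used by most cells, so these levels are not those of chromaffin granules alone.

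Of 12 factors and kinases known to act on Th or Pnmt, 11 were detected. Of the 11 averaging 100 counts or more, 1 was at least 2-fold apart, beside 3.51% of all genes compared. Nr4a1, an immediate early nuclear receptor, had 78.4 TPM in replicate 1 and 17.9 TPM in replicate 2, a fold of 4.96 (4.64 to 5.30). The cortex also expresses Nr4a1, and the cells of origin cannot be told apart. The kinase genes Prkaca and Mapk3 had folds of 0.872 (0.840 to 0.906) and 0.940 (0.895 to 0.988). Egr1, a factor that acts on the Pnmt promoter in the rat, and the glucocorticoid receptor gene Nr3c1 were named after their values were seen. Egr1 had 13.3 TPM in replicate 1 and 7.96 TPM in replicate 2 (fold 1.77, 1.62 to 1.94), and Nr3c1 10.2 TPM in replicate 1 and 16.6 TPM in replicate 2 (fold 0.635, 0.593 to 0.680). The list's median log2 ratio was -0.02.

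**Figure D5:**
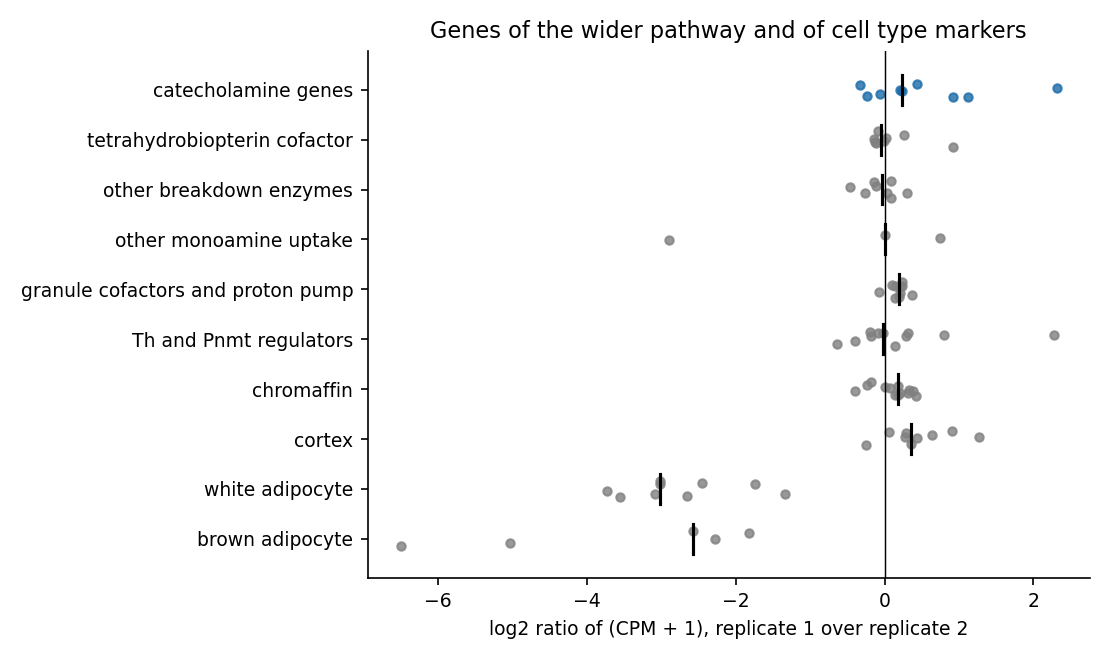
Log2 ratio of CPM plus 1, replicate 1 over replicate 2 (x axis), for genes averaging 10 counts or more in 10 lists (y axis). Each dot is a gene and each black line the list's median; the chromaffin median is 0.18, the cortex median 0.36 and the white adipocyte median -3.02.

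Markers of other cells moved beside these genes as follows. Cortical markers had a median log2 ratio of 0.36 and summed to 22798 TPM in replicate 1 and 18877 TPM in replicate 2. Of these, 1 of 9, the electron donor Fdx1, was at least 2-fold higher in replicate 1, beside 1.10% of all genes compared. Of the brown adipocyte markers 5 of 6 were at least 2-fold lower in replicate 1, beside 2.40% of all genes compared, and none was at 0 counts. Macrophage markers had 6 of 6 folds below 1 and summed to 194 TPM in replicate 1 and 308 TPM in replicate 2, and endothelial markers summed to 243 and 247 TPM in replicates 1 and 2. Schwann and sustentacular markers summed to 12.8 TPM in replicate 1 and 27.3 TPM in replicate 2, with S100b, which fat also expresses, at 1.42 and 13.2 TPM in replicates 1 and 2. Liver markers summed to 17.1 and 71.8 TPM in replicates 1 and 2. Most of the sum in replicate 2 was Cyp2e1, at 5.73 and 59.1 TPM in replicates 1 and 2. Alb stood at 7.38 and 8.40 TPM in replicates 1 and 2. The liver list had 2 folds above 1 and 3 below it, with a median fold of 0.951. Cholinergic neuron markers summed to 0.12 and 0.10 TPM in replicates 1 and 2, with Slc18a3 at 0 counts in both.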

How the data were processed

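Total RNA was sequenced from whole adrenal glands of 2 animals of 1 labelled group. Per the file headers, which follow RSEM's column names, the authors gave each gene an expected count, not normalized between libraries, and a TPM value. For transcripts the deposited tables add the share, in percent, of the gene's TPM, and the deposited posterior standard deviation of a count served as a score of how uncertain it is, per the file headers. A deposited second quantification, whose headers follow kallisto, holds estimated counts and TPM. The text deposited with the tables names mm10 and GENCODE M21. Versions of the aligner and quantifiers were not given in the sources used here. How CAST/EiJ alleles aligned to this C57BL/6J assembly was not tested.

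Levels are TPM as deposited. Folds are ratios of expected counts rounded to whole numbers, replicate 1 over replicate 2, scaled with TMM in edgeR 4.0.16 (R 4.3.3), with exact conditional binomial 95% intervals (SciPy 1.17.1). They cover counting error only, not the spread between animals. They may be too narrow even for counting error, as reads that carry no molecular identifier need not be separate molecules. A gene was counted as at least 2-fold apart where the interval excluded equality and the mean was at least 100 counts. The procedure was run on simulated counts with counting error alone, which leave out duplicate reads and differences between animals. An alternative used size factors from DESeq2 1.42.0. List medians use log2 of CPM plus 1 for genes averaging 10 counts or more. Named genes are all 9 members, the 3 of highest mean TPM in each pathway list, and any list gene at least 2-fold apart. Not every gene that this rule names is reported here. Motifs were searched in RefSeq promoter windows. The members and lists were chosen with earlier results of these data known.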

Additional observations from a re-analysis of the deposited data

How the results depend on the processing

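All 9 member folds, taken as point values, kept their direction under 7 alternatives: DESeq2 size factors, totals of all or of protein-coding genes, spike-in totals, deposited TPM, posterior mean counts and kallisto-format counts. Pnmt ranged from 4.65 to 5.06 and Th from 2.01 to 2.19, both at least 2-fold higher in each, while Gch1 ranged from 1.77 to 1.92. With deposited TPM the intervals of Slc18a1 (1.07, 0.999 to 1.14) and Slc18a2 (1.06, 0.977 to 1.15) held equality. Whether the Ddc interval held equality depended on the scaling, as given above. The 142 genes higher and 309 lower in replicate 1 became 690 and 874 with a minimum mean of 10 counts, and 996 and 1184 with no minimum, because more genes of few counts enter. Ratios of expected counts, not divided by length, gave means of 0.409 for Pnmt to Dbh, 0.870 for Dbh to Th, 0.120 for Gch1 to Th and 1.5 for Slc18a1 to Slc18a2. Kallisto-format TPM gave 0.0656 for Gch1 to Th and 2.30 for Slc18a1 to Slc18a2, and the cause of these shifts was not tested. Leaving out a replicate leaves the value of the other gland, so the Pnmt to Dbh ratio is 0.399 without replicate 1 and 1.49 without replicate 2. No paired analysis was possible because the labels give 1 group. With 2 animals, neither the spread of these genes nor a typical gland can be told, and counting error is small beside the difference between the animals for Th and Pnmt.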
